A study of Mus musculus with 6 samples.

Results

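The mouse genes of mast cells, basophils and eosinophils described here are *Milr1*, *Fcer1g*, *Ms4a2*, *Fcer1a*, *Cpa3*, *Mcpt8*, *Hdc*, *Gata2*, *Prg2* and *Epx*, which are 10 of the 54838 genes in the count table and 10 of the 11092 genes with enough reads to be tested. They were listed by name, and the list was chosen by the adjusted p of *Milr1*, the lowest among genes higher with AG636, so the difference between AG636 and Vehicle in these genes is given as a description, without a p-value. RNA was sequenced from acute myeloid leukemia cells of mice that received AG636, an inhibitor of the pyrimidine synthesis enzyme DHODH, at 100 mg/kg b.i.d. by oral gavage, or Vehicle, with 3 mice in each group. The question put to the data was how immature leukemia cells respond to the inhibitor inside the animal.

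Cells of both groups carried IDH1R132H, DNMT3AR882H and NrasG12D, a combination abbreviated I1DN, on a C57BL/6 background. The mutant proteins were expressed from introduced constructs in progenitors of fetal liver origin, and leukemias were started from frozen cells of a diseased mouse, so the mice carried transplants of an established leukemia. Recipients in both groups were congenic Ptprca mice that had been irradiated at a sublethal dose. Their age is not given in the sources used here, and the sources differ on how long AG636 was given to these mice before the sort, with 1 day in one place and 4 days in another. Leukemia cells were taken from bone marrow and spleen by fluorescence sorting as immature cells, named cKit+ CD11b- in one place and cKit-high CD11b-low in another. Libraries were made with a kit that reads the 3' ends of transcripts, so a count does not grow with transcript length. Total counts ranged from 4634963 to 7906589 a library, and levels are given as CPM, the count scaled to a common library size, after correcting that size by the TMM factor. At this depth a count of 3 corresponds to between 0.392 and 0.637 CPM.

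Mast cells and basophils bind IgE through FcεRI, a receptor made of an α chain that holds IgE, a β chain that amplifies the signal and a γ chain that carries the activating tyrosine motif. Cross-linking of the receptor releases histamine and proteases from granules, while receptors with an inhibitory tyrosine motif (ITIM), among them the *Milr1* product Allergin-1, dampen that response. Eosinophils are a related granulocyte lineage whose granules are filled with major basic protein and eosinophil peroxidase. Immature eosinophils make these proteins early, in the bone marrow. GATA2 is a transcription factor of blood stem and progenitor cells that mast cells and basophils keep.

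Promoter sequence is shown for *Milr1*, which had the highest fold of the 10 genes, for *Cpa3*, and for *Ms4a2*, which held as many GATA motifs as *Milr1*. Each line gives the 250 bases before the RefSeq start, 5' to 3' on the strand of the gene in build GRCm38.p6, and capitals mark 4 short motifs that GATA factors recognise, on either strand. They are the letters AGATAA and the related form spelled TGATAA, together with the further forms that are spelled AGATAG and, as the last form searched, TGATAG. The windows are chr11:106750976-106751225 on the plus strand for *Milr1*, chr3:20242182-20242431 on the minus strand for *Cpa3*, and chr19:11623720-11623969 on the minus strand for *Ms4a2*.
Milr1: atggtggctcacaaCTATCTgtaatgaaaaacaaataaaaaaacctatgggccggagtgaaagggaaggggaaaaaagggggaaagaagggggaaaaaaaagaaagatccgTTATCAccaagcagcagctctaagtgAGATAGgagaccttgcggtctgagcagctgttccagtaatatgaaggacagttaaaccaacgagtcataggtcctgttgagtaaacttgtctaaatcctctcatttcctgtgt
Cpa3: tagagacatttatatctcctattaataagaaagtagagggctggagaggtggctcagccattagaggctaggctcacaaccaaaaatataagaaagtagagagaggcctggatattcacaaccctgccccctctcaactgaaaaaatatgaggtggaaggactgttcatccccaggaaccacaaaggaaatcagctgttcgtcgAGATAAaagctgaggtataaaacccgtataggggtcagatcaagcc
Ms4a2: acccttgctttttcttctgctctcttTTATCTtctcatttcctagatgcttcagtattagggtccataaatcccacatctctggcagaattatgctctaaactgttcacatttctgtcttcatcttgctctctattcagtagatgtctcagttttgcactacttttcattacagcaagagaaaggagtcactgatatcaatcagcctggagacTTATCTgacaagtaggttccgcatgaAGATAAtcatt

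*Milr1* held 3 matches, at bases 236 to 231, 139 to 134 and 113 to 108 before the start. *Ms4a2* also held 3, at bases 224 to 219, 37 to 32 and 11 to 6, and *Cpa3* held 1, at bases 46 to 41. In all, 9 of the 10 genes had an entry in the promoter table, and 5 of those 9 held a match, the others being *Fcer1a* and *Hdc* with 1 each. Of all 32851 promoters listed there, 26.5% held at least 1 match and 1.35% held 3 or more. None of the matches overlapped another. A match is a run of letters, and binding was not measured in these cells. The genes with a match did not share a call, as *Milr1* and *Cpa3* are among those that passed the threshold below and *Ms4a2*, *Fcer1a* and *Hdc* are not, while *Fcer1g* and *Gata2* passed it with no match in the window.

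With AG636, *Milr1*, *Fcer1g*, *Gata2* and *Cpa3* passed the threshold for a higher level, *Epx* passed it for a lower level, and *Ms4a2*, *Fcer1a*, *Mcpt8*, *Hdc* and *Prg2* did not pass. The threshold is an adjusted p below 0.05 in the quasi-likelihood test of edgeR, adjusted by Benjamini-Hochberg over all genes tested. It was passed by 21.3% of all genes tested, 10.3% for a higher and 11.0% for a lower level, and since the genes were listed with this contrast known, nothing is read from 4 higher and 1 lower among 10. The median log2 fold change was 0.52 over the 10 genes and 0.03 over all genes tested. The CPM of the 2 groups of mice did not overlap for *Milr1*, *Fcer1g* and *Gata2* on the higher side and for *Epx* on the lower side, against 20.5% and 20.6% of all genes tested. Because these are sorted bulk samples, a change in the number of cells of a type and a change in RNA per cell cannot be told apart.

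**Figure D1:**
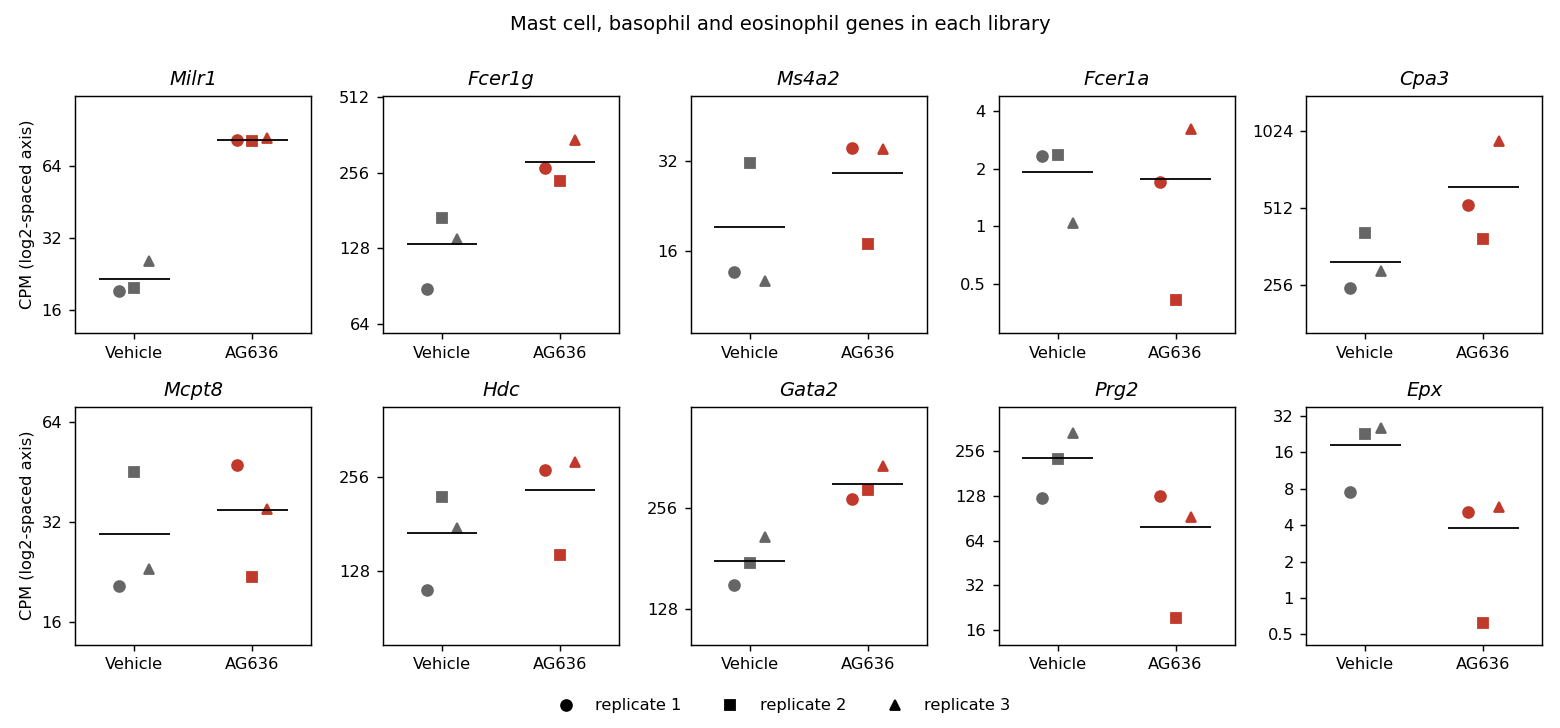
CPM of the 10 genes in each library, on an axis spaced by log2 whose range differs between panels. Each symbol is 1 mouse, with the shape giving the replicate number, and each line is the mean of 3 mice. The AG636 libraries of *Milr1* lie between 81.7 and 84.6 CPM, above all Vehicle libraries, whereas the groups of *Ms4a2*, *Fcer1a*, *Cpa3*, *Mcpt8*, *Hdc* and *Prg2* overlap.

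*Milr1*, which encodes the inhibitory receptor Allergin-1 (ENSMUSG00000040528, mm10 chromosome 11, 106751226 to 106768794, plus strand), had 19.1, 19.8 and 25.7 CPM in the Vehicle libraries and 82.2, 81.7 and 84.6 CPM in the AG636 libraries. The groups lay far apart and the 3 AG636 mice were nearly alike. The mean was 21.5 ± 3.65 CPM (SD, n = 3) with Vehicle and 82.8 ± 1.55 CPM (SD, n = 3) with AG636, a log2 fold change of 1.95 with a standard error of 0.16. When each library was left out in turn the log2 fold change stayed between 1.86 and 2.07, and *Milr1* passed the threshold in all 6 of these fits. These fits reuse the libraries by which *Milr1* was chosen, so they are not separate support. *Milr1* ranked 1 among genes higher with AG636 by adjusted p, the value by which the list was chosen. The next were *Gm39556*, with a log2 fold change of 3.64, and *Anxa1*, the gene of annexin A1, with 2.15, both with an adjusted p of 0.00202 by edgeR.

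The last exon of *Milr1*, where 3' reads fall, shares 132 exon bases with *Polg2* on the opposite strand. *Polg2*, which encodes a subunit of the mitochondrial DNA polymerase, had 183 counts over the 6 libraries against 1612 for *Milr1*, and it did not pass, with a log2 fold change of 0.46 (edgeR adjusted p = 0.282). Whether the authors counted reads by strand is not given in the sources used here, and without strand the reads of the 2 genes cannot be told apart in the shared bases. *Pecam1*, whose product is the adhesion receptor CD31, starts 598 bases from *Milr1* and had a log2 fold change of 0.35 that did not pass (edgeR adjusted p = 0.286). In all, 5 genes within 100000 bases of *Milr1* were tested and 0 passed in either direction.

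*Fcer1g* encodes the γ chain, which also serves other activating receptors of myeloid cells (ENSMUSG00000058715, chromosome 1, 171229572 to 171234365, minus strand). Its level was 88.4, 169.5 and 140.0 CPM with Vehicle and 267, 237 and 345 CPM with AG636. Every AG636 library was above every Vehicle library, although Vehicle replicate 1 was well below the other 2 of its group. The mean was 133 ± 41.0 CPM (SD, n = 3) with Vehicle and 283 ± 55.7 CPM (SD, n = 3) with AG636, a log2 fold change of 1.09 with a standard error of 0.22, and the gene passed in all 6 fits that left out 1 library, at 0.85 to 1.30.

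*Ms4a2* encodes the β chain (ENSMUSG00000024680, chromosome 19, 11615523 to 11623719, minus strand) and was at 13.6, 31.7 and 12.7 CPM with Vehicle and at 35.5, 16.9 and 35.1 CPM with AG636. Vehicle replicate 2 and AG636 replicate 2 each lay with the other group. The log2 fold change was 0.57 with a standard error of 0.38, and the gene passed in 0 of the 6 fits that left out 1 library, whose values ran from 0.33 to 1.14, the last of them without Vehicle replicate 2.

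*Fcer1a*, the gene of the IgE-binding α chain (ENSMUSG00000005339, chromosome 1, 173221284 to 173227214, minus strand), was close to the limit of detection. It had 13, 18 and 5 counts in the Vehicle libraries and 8, 2 and 17 counts in the AG636 libraries, or 2.32, 2.35 and 1.04 CPM against 1.70, 0.412 and 3.21 CPM. The log2 fold change was -0.12 with a standard error of 0.61, and it turned to 0.06 without Vehicle replicate 2 and to 0.34 without AG636 replicate 2. No difference in the α chain was detectable at this depth, and the 3 chains of FcεRI therefore gave 1 gene past the threshold and 2 that were not.

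**Figure D2:**
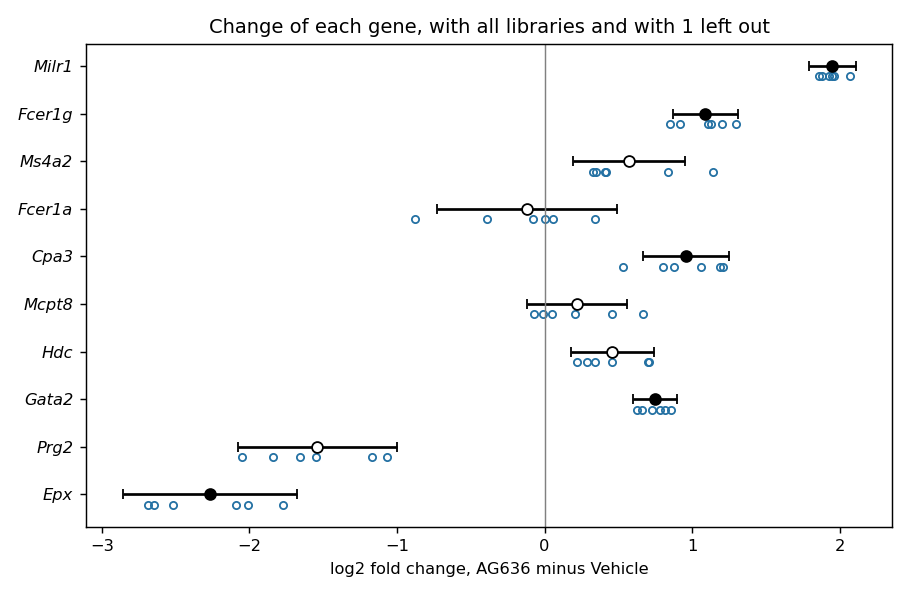
Log2 fold change, AG636 minus Vehicle, of the 10 genes. Large circles are the values with all 6 libraries, filled where the gene passed the threshold, with bars of 1 standard error, and small blue circles are the values with 1 library left out. The small circles of *Milr1* and *Gata2* stay close to the large one, and those of *Fcer1a* and *Mcpt8* lie on both sides of 0.

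*Cpa3* encodes carboxypeptidase A3, a granule protease of mast cells and basophils that is also made by their progenitors (ENSMUSG00000001865, chromosome 3, 20215620 to 20242181, minus strand). It was at 249, 408 and 289.6 CPM with Vehicle and at 526, 386 and 934 CPM with AG636. AG636 replicate 3 was far above the other libraries and AG636 replicate 2 was below Vehicle replicate 2, so the groups overlapped. The log2 fold change was 0.96 with a standard error of 0.29, from a mean of 316 ± 82.6 CPM (SD, n = 3) to 615 ± 285 CPM (SD, n = 3). The threshold was kept in 1 of the 6 fits that left out 1 library, the one without AG636 replicate 2, at 1.21. It was lost without Vehicle replicate 1 at 0.80, without Vehicle replicate 2 at 1.19, without Vehicle replicate 3 at 0.88, without AG636 replicate 1 at 1.06 and without AG636 replicate 3 at 0.53. It was also lost with DESeq2 (0.95) and with limma-voom (0.89).

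*Mcpt8* encodes a serine protease of basophil granules (ENSMUSG00000022157, chromosome 14, 56082166 to 56085273, minus strand), in a cluster of related protease genes, so that reads shared with a close relative would be uncertain. It had 20.5, 45.1 and 23.0 CPM with Vehicle and 47.4, 21.9 and 34.9 CPM with AG636. The 2 groups covered nearly the same range. The log2 fold change was 0.22 with a standard error of 0.34, and it was -0.01 without Vehicle replicate 1 and -0.07 without AG636 replicate 1.

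*Hdc* encodes histidine decarboxylase, which makes histamine (ENSMUSG00000027360, chromosome 2, 126593667 to 126619299, minus strand). Its level was 111, 221 and 175 CPM with Vehicle and 269.5, 144 and 287 CPM with AG636. AG636 replicates 1 and 3 were above the Vehicle mice, and AG636 replicate 2 was within their range. The log2 fold change of 0.46 with a standard error of 0.28 did not pass with all libraries or with any 1 left out, at 0.22 to 0.71.

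*Gata2* encodes the transcription factor of the list (ENSMUSG00000015053, chromosome 6, 88193891 to 88207032, plus strand). It was at 151, 175 and 209 CPM with Vehicle and at 272, 289.7 and 339.8 CPM with AG636. All AG636 mice were above all Vehicle mice. The mean was 178 ± 29.2 CPM (SD, n = 3) with Vehicle and 300.5 ± 35.2 CPM (SD, n = 3) with AG636, a log2 fold change of 0.75 with a standard error of 0.15, and the threshold was passed in all 6 fits that left out 1 library, at 0.63 to 0.86.

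The eosinophil granule genes had lower values with AG636. *Prg2*, the gene of major basic protein (ENSMUSG00000027073, chromosome 2, 84980461 to 84983632, plus strand), was at 125, 229 and 341 CPM with Vehicle and at 128, 19.2 and 92.3 CPM with AG636. AG636 replicate 2 was far below the rest, and AG636 replicate 1 was level with Vehicle replicate 1. The log2 fold change of -1.54 with a standard error of 0.54 did not pass, although *Prg2* did pass without Vehicle replicate 1, at -1.84, and with limma-voom, at -1.80. Without AG636 replicate 2 the log2 fold change was -1.07 and did not pass.

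*Epx* encodes eosinophil peroxidase (ENSMUSG00000052234, chromosome 11, 87864000 to 87875536, minus strand) and was at 7.49, 22.6 and 25.3 CPM with Vehicle and at 5.10, 0.619 and 5.66 CPM with AG636, where AG636 replicate 2 had 3 counts. All AG636 mice were below all Vehicle mice, with Vehicle replicate 1 the nearest to them. The mean was 18.5 ± 9.60 CPM (SD, n = 3) with Vehicle and 3.79 ± 2.76 CPM (SD, n = 3) with AG636, a log2 fold change of -2.27 with a standard error of 0.59. The threshold was kept without Vehicle replicate 1, at -2.65, and without AG636 replicate 2, at -1.77. It was lost without Vehicle replicate 2 at -2.09, without Vehicle replicate 3 at -2.01, without AG636 replicate 1 at -2.52 and without AG636 replicate 3 at -2.69, and it was lost with DESeq2 at -2.29.

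*Epx* lies beside other genes of myeloid granules and *Prg2* beside its relative *Prg3*. *Prg3*, at a distance of 4583 bases from *Prg2*, had a log2 fold change of -1.18 that did not pass (edgeR adjusted p = 0.136), and *Mpo*, the myeloperoxidase gene at 59587 bases from *Epx*, had -0.65 (edgeR adjusted p = 0.266). *Tspoap1*, at 78072 bases on the opposite strand from *Epx*, was higher with AG636 at a log2 fold change of 2.10 (edgeR adjusted p = 0.00248). Of all genes tested 10.3% were higher and 11.0% lower. Around all 10 genes, 33 genes within 100000 bases were tested, of which 2 rose and 2 fell. The others were *Ms4a6b* beside *Ms4a2*, higher at 1.35, *Ppox* beside *Fcer1g*, lower at -0.86, and *Rpn1* beside *Gata2*, lower at -0.52.

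Most of the 10 genes varied more between mice of a group than other genes of like level, meaning genes whose mean CPM was within 2-fold. The SD between mice of a group on the log2 scale was 1.15 for *Prg2*, and 1 of the 2269 genes of like level had a larger one. For *Epx* the SD was 1.24, and 13 of 2994 genes of like level had a larger one. *Cpa3* and *Hdc* each had an SD of 0.53, larger in 13 of 673 and 26 of 1746 genes of like level. These 4 genes were thus among the most variable of their level in these libraries. *Fcer1g*, *Mcpt8*, *Ms4a2* and *Fcer1a* followed, with between 2.46% and 6.56% of genes of like level more variable. *Milr1*, with an SD of 0.16, and *Gata2*, with 0.20, stood in the middle range, as 62.1% and 28.9% of genes of like level had a larger SD. The adjusted p of *Milr1*, by which the list was chosen, depends on this spread too.

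**Figure D3:**
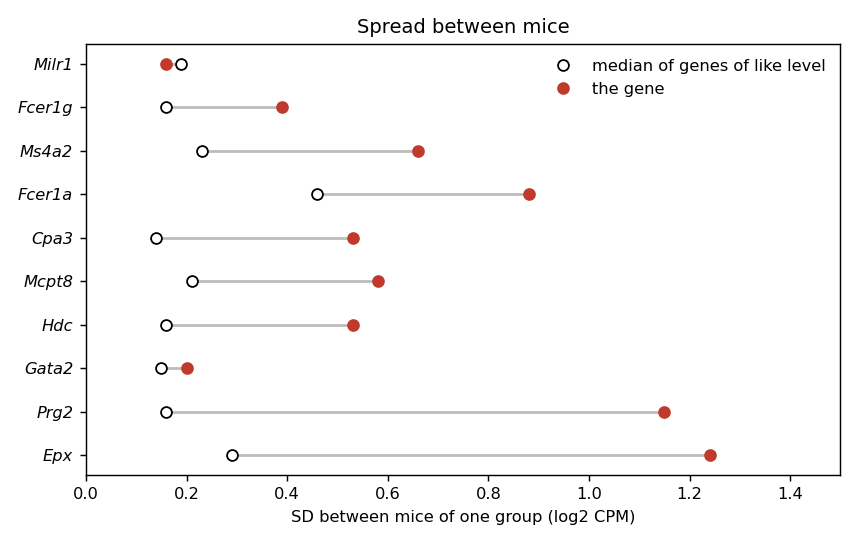
SD between mice of a group, in log2 CPM, of each of the 10 genes (filled) and the median SD of tested genes within 2-fold of its mean level (open). The filled circle of *Milr1* at 0.16 lies below its open circle at 0.19, and those of *Prg2* and *Epx* lie farthest to the right at 1.15 and 1.24.

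The variation followed the same libraries in most of the genes. AG636 replicate 2 was the lowest of its group for 9 of the 10 genes, and it was the lowest for 35.3% of all genes tested. The exception was *Gata2*, whose lowest AG636 library was replicate 1. Vehicle replicate 1 was the lowest of its group for 8 of the 10 genes, against 36.4% of all genes tested, and AG636 replicate 3 was the highest for 7, against 30.5%. The neutrophil primary granule genes, 6 of 6 tested with 0 past the threshold, summed to 2221, 4432 and 4867 CPM in the Vehicle libraries and 5131, 1648 and 3863 CPM in the AG636 libraries. Vehicle replicate 1 and AG636 replicate 2 were the lowest of their groups in this sum too, and its part in the values of the 10 genes was not tested.

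**Figure D4:**
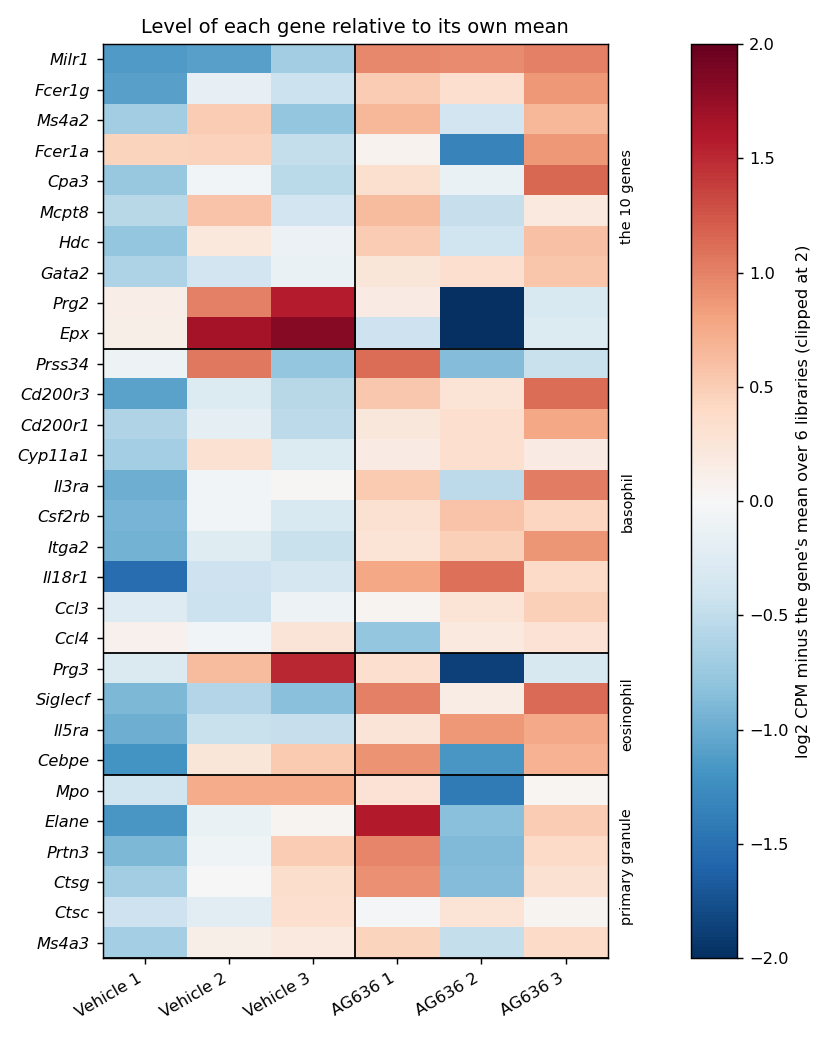
Level of each gene in each library as log2 CPM minus the mean over the 6 libraries, from blue (lower) to red (higher), with the color held at 2 in either direction. Columns are libraries with their replicate number, and blocks of rows are the 10 genes and the tested markers of basophils, eosinophils and neutrophil primary granules. *Prg2*, *Epx* and *Prg3* are darkest blue in AG636 replicate 2, and *Milr1* is evenly red in the 3 AG636 libraries.

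The cell type labels of the list were checked against other markers. Of 14 further mast cell genes, *Cma1*, *Tpsab1*, *Mrgprb1* and *Mrgprb2*, which are proteases and receptors of mature connective tissue mast cells, had 0 counts in all 6 libraries, and 7 of the 14 were under 1 CPM in all libraries. Among the 6 that were tested *Rab27b*, a regulator of granule release, rose with a log2 fold change of 1.15 (edgeR adjusted p = 0.0138), and *Kit*, the stem cell factor receptor used in the sort, had 0.15 (edgeR adjusted p = 0.550). Summed levels of the mast cell list were 771 to 1390.0 CPM with Vehicle and 939 to 1766 CPM with AG636. *Cd63*, a granule membrane protein found in many cells, had the highest mean, at 637 CPM with Vehicle and 759.5 CPM with AG636. *Ctsg*, which is also on the neutrophil primary granule list, was next, at 445 and 562 CPM, and most of the sum came from *Cd63* and *Ctsg*. Of the other mast cell proteases *Tpsb2*, *Mcpt4* and *Mcpt1* had 1, 3 and 4 counts over all libraries. *Mcpt2*, a protease of mucosal mast cells, was too low to be tested, with 0.178, 0.916 and 0.836 CPM in the Vehicle libraries and 2.12, 3.92 and 1.70 CPM in the AG636 libraries, which were all above the Vehicle libraries on 50 counts in total. *Mcpt2* was named after its values were seen.

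Of 13 further basophil genes 10 were tested, with a median log2 fold change of 0.81. Where 10.3% of all genes tested were higher and 11.0% lower, 0 of the 10 fell and 5 rose. They were *Il18r1* at 1.66, the CD200 receptor family genes *Cd200r3* at 1.30 and *Cd200r1* at 0.93, the integrin gene *Itga2* at 1.15, and *Csf2rb*, the shared β chain of the IL-3, IL-5 and GM-CSF receptors, at 0.83. *Cd200r3*, at 11.6, 20.3 and 16.7 CPM with Vehicle and 36.1, 29.9 and 54.0 CPM with AG636, passed in all 6 fits that left out 1 library, while *Il18r1* and *Cd200r1* passed in 1 each. *Prss34*, the basophil protease that defines the lineage beside *Mcpt8*, had a log2 fold change of -0.09 (edgeR adjusted p = 0.923), and *Il13* had 0 counts in all libraries. *Il18r1* was at 0.535, 1.57 and 1.67 CPM with Vehicle and 4.04, 5.16 and 3.02 CPM with AG636. It had enough reads to be tested only through the AG636 libraries. The number that rose and the median of the list therefore depend in part on the filter. Summed levels of the list were 154 to 281 CPM with Vehicle and 331 to 353 CPM with AG636. The proteases *Mcpt8* and *Prss34* were thus among the genes that did not pass, and the 5 that rose all encode proteins of the cell surface.

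Of 9 further eosinophil genes 4 were tested, and *Siglecf*, an inhibitory lectin of eosinophils, rose with a log2 fold change of 1.60 (edgeR adjusted p = 0.00411), as did *Il5ra*, the IL-5 receptor α chain, with 1.42 (edgeR adjusted p = 0.0284). These were 2 of the 4 genes tested, where 10.3% of all genes tested were higher. *Il5ra* was at 1.07, 1.70 and 1.67 CPM with Vehicle and 2.97, 4.74 and 4.34 CPM with AG636. It had enough reads to be tested only through the AG636 libraries. The count of 2 of 4 therefore depends in part on the filter, and nothing is read from it. *Siglecf* was at 20.9, 26.0 and 21.9 CPM with Vehicle and 79.2, 43.5 and 87.0 CPM with AG636. *Il5ra*, at a mean of 1.48 CPM with Vehicle and 4.02 CPM with AG636, passed in 1 of the 6 fits that left out 1 library. *Prg3* and *Cebpe*, a factor of granule gene expression, did not pass, at -1.18 and 0.37, and 4 of the 9 genes were under 1 CPM in all libraries, among them *Ear1* and *Ccr3*. Both receptors thus had positive values where the granule genes *Prg2*, *Epx* and *Prg3* had negative ones, and of those 3 only *Epx* passed.

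Of 20 signalling genes between the IgE receptor and calcium entry, all of them tested, 3 rose and 0 fell, where 10.3% of all genes tested were higher and 11.0% lower, so that the number higher was near the background. The median log2 fold change was 0.45. *Lyn*, the kinase that starts the signal at the β and γ chains, rose by 0.65 (edgeR adjusted p = 0.0325), *Fyn*, a related kinase, by 0.55 (edgeR adjusted p = 0.0474), and *Stim1*, the calcium sensor of the endoplasmic reticulum, by 0.68 (edgeR adjusted p = 0.0116). *Stim1* was at 39.4, 45.0 and 49.3 CPM with Vehicle and 65.2, 72.6 and 75.7 CPM with AG636 and passed in 5 of the 6 fits that left out 1 library, against 2 for *Lyn* and 0 for *Fyn*. *Syk*, the kinase recruited to the γ chain, had 0.38 (edgeR adjusted p = 0.336), and *Btk* had -0.26 (edgeR adjusted p = 0.263).

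Receptors that pair with the γ chain were near the limit of detection in part. Of 9 such genes 4 were tested and 3 rose, namely the IgG receptor genes *Fcgr4* at 1.55 and *Fcgr3* at 0.87, and the lectin gene *Clec4e* at 1.40. Of all genes tested 10.3% were higher. *Fcgr4* was at 2.32, 1.31 and 4.18 CPM with Vehicle and 6.16, 9.07 and 6.80 CPM with AG636. It had the reads needed for testing in every AG636 library but not in every Vehicle library. *Clec4e* was at 9.63, 18.1 and 20.5 CPM with Vehicle and 34.0, 49.7 and 43.2 CPM with AG636 and passed in all 6 fits that left out 1 library, whereas *Fcgr3* and *Fcgr4* passed in 1 each. The summed level of the 9 genes was 54.2 to 102 CPM with Vehicle and 140.2 to 177 CPM with AG636. The other 5 genes had too few reads to be tested, and *Tarm1*, which was tested, did not pass, at -0.58 (edgeR adjusted p = 0.358).

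Of 20 genes listed as inhibitory receptors besides *Milr1*, 15 were tested. Whether each mouse protein carries the inhibitory motif was not checked. Of the 15 tested, 8 rose and 0 fell, where 10.3% of all genes tested were higher and 11.0% lower. The median log2 fold change was 0.89 against 0.03 for all genes tested. The highest values were those of *Cd33* at 1.77 (edgeR adjusted p = 0.00906), *Clec4a2* at 1.61 (edgeR adjusted p = 0.0293), *Siglecf* at 1.60 and *Clec12a* at 1.49 (edgeR adjusted p = 0.0168). All 4 encode lectin-type receptors of myeloid cells. *Milr1*, at 1.95, lay above each of the 15 in log2 fold change, but it was singled out by its adjusted p in these libraries. *Fcgr2b*, the inhibitory IgG receptor that restrains FcεRI in mast cells, had 0.24 (edgeR adjusted p = 0.675). *Cd33* and *Siglecf* passed in all 6 fits that left out 1 library, and *Clec4a2* and *Clec12a* in 3 each.

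Genes for making and storing mediators were tested for 11 of 14. Of these 3 rose and 0 fell, where 10.3% of all genes tested were higher and 11.0% lower. The median log2 fold change was 0.51. *Alox5ap* and *Alox5*, which act together in the first step of leukotriene synthesis, rose by 1.05 (edgeR adjusted p = 0.00475) and by 0.60 (edgeR adjusted p = 0.0498), and *Srgn*, the granule proteoglycan serglycin, by 0.73 (edgeR adjusted p = 0.0141). *Alox5ap* passed in all 6 fits that left out 1 library, *Srgn* in 4 and *Alox5* in 2. *Slc18a2*, the transporter that loads histamine into granules, had 0.44 (edgeR adjusted p = 0.233), close to the 0.46 of *Hdc*.

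Among 18 transcription factors of these lineages 1 rose and 2 fell, which is near the 10.3% and 11.0% of all genes tested, and the median log2 fold change was 0.06. *Ikzf2*, a zinc finger factor of the Ikaros family, rose by 0.92 (edgeR adjusted p = 0.0321). *Tal1* and *Gfi1b*, which work with GATA factors in erythroid and megakaryocyte cells, were lower at -0.68 (edgeR adjusted p = 0.0269) and -0.62 (edgeR adjusted p = 0.0250). With 1 library left out, *Ikzf2* and *Tal1* passed in 2 of 6 fits each and *Gfi1b* in 3. *Gata1*, the relative of *Gata2* in erythroid cells, mast cells and eosinophils, had -0.30 (edgeR adjusted p = 0.296) and *Mitf*, a factor of mast cells, 0.62 (edgeR adjusted p = 0.219). In the 5 lists of signalling, partner receptor, inhibitory receptor, mediator and transcription factor genes, 20, 4, 15, 11 and 18 genes were tested. Over these 5 lists 18 genes rose and 2 fell, where 10.3% of all genes tested were higher and 11.0% lower. Of the 18, 8 were inhibitory receptor genes. The number higher was 9 without Vehicle replicate 1, 9 without Vehicle replicate 2, 9 without AG636 replicate 1 and 6 without AG636 replicate 3, and the number lower was 0, 1, 0 and 0 in the same order.

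**Figure D5:**
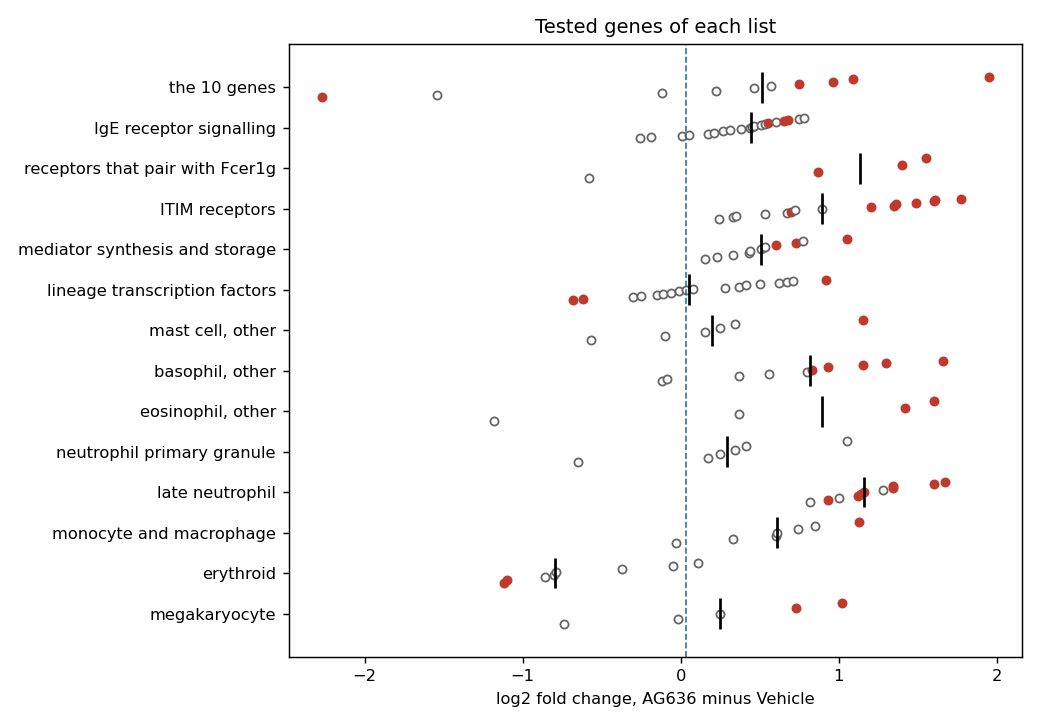
Log2 fold change, AG636 minus Vehicle, of the tested genes of each list. Each circle is 1 gene, filled where it passed the threshold, black bars are list medians, and the dashed line is the median of all genes tested at 0.03. Filled circles of the inhibitory receptors lie at 0.70 and above, and *Epx* of the 10 genes lies farthest to the left at -2.27.

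Markers of other cells moved beside the 10 genes. Late neutrophil genes, 11 of 11 tested, gave 8 that rose and 0 that fell, where 10.3% of all genes tested were higher and 11.0% lower. Their median log2 fold change was 1.16, and their sum was 1089 to 2462 CPM with Vehicle and 3011 to 6064 CPM with AG636. *Ly6g*, 1 of the 8, was at 1.60, 1.44 and 1.88 CPM with Vehicle. It had enough reads to be tested only through the AG636 libraries. *Itgam*, which encodes the CD11b used in the sort, rose by 1.21 (edgeR adjusted p = 0.0219). Of 8 erythroid genes tested 0 rose, 2 fell and 6 did not pass, with a median log2 fold change of -0.79. *Klf1*, a transcription factor of red cell precursors, was lower at -1.10 (edgeR adjusted p = 0.0238). The globin gene *Hbb-bs*, the most abundant of the list, had 0.11 (edgeR adjusted p = 0.842). The erythroid list summed to 1871 to 5034 CPM with Vehicle and 2003 to 3524 CPM with AG636. Of 7 monocyte genes tested 1 rose and of 5 megakaryocyte genes 2 rose, and B cell genes summed to 8.74 to 22.3 CPM and T and NK cell genes to 1.06 to 4.91 CPM over all libraries. The part of these cells in the values of *Milr1*, *Fcer1g*, *Gata2* and the other genes was not tested.

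The genes whose profile over the 6 libraries was nearest to that of *Milr1*, by the root mean square difference of centered log2 CPM, were *Slc2a9* at 0.16, *Gm35853* at 0.17, *Zfp467* and *Gm37183* at 0.19 and *Snn* at 0.20. They were at log2 fold changes between 1.69 and 1.96, which follows from how they were picked, as the profile holds the difference between the groups. *Slc2a9* encodes a urate transporter and *Zfp467* a zinc finger protein. None of the other 9 genes of the list was among these 5.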

How the data were processed

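The deposited table holds whole-number counts of reads per gene, which the authors made from 3' end reads by trimming with cutadapt 1.9.1, alignment to mm10 (GRCm38) with HISAT2 2.0.4 and counting with featureCounts of Subread 1.5.0-p3, per the submitters' processing notes. The annotation release, the strand setting and the treatment of reads with several positions are not given in the sources used here. Gene names were taken from GENCODE M21, whose identifiers matched 99.79% of the table, and promoters from RefSeq. Gene positions and exons were those given in the count table itself. Of the matched genes, 98.7% had the same ends in GENCODE M21. The table has 0 per-sample columns that were left unused.

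Differences were tested with edgeR 4.0.16 in R 4.3.3: genes were kept by filterByExpr (minimum count 10, total 15), scaled by TMM, fitted by quasi-likelihood on Vehicle and AG636 (3 libraries each) and adjusted by Benjamini-Hochberg over 11092 genes, with a threshold of 0.05. Each library is 1 mouse. The p-values compare the group difference with the spread between mice, where the spread of each gene is drawn toward that of other genes. CPM values were divided by the TMM-scaled library size, and their SD is over 3 mice. Intervals on single counts were not computed, and the limit for 0 counts is 3 counts, for counting error only. Libraries of a group differed by more than sampling noise, at a chi-square per degree of freedom of 6.672 to 15.636, so none was counted as a repeat. On counts simulated for this comparison over 11092 genes, 77% of genes with a log2 change of 1 and 100% of genes with a change of 2 were found, and 16 unchanged genes passed. The 200 changed genes were drawn only from genes with higher mean counts, and 2368 genes passed in the data. These shares therefore do not cover genes as low as *Fcer1a*, and they are not shares for the 10 genes, most of which varied more. Alternatives were other scalings, filters and tests (DESeq2 1.42.0, limma-voom in limma 3.58.1), a replicate block, thinned counts, a threshold of 0.01 and leaving out each library.

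The 10 genes and all lists were chosen with earlier results of these data known. Named besides the 10 were at most 4 genes a list, those with the largest change past the threshold, the defining and most abundant markers of cell types, the next 2 genes after *Milr1*, its 5 nearest profiles, and neighbours that overlapped or passed. *Syk*, *Btk*, *Fcgr2b*, *Slc18a2*, *Gata1*, *Mitf*, *Mpo*, *Prg3*, *Tarm1* and *Pecam1* were named after their values were seen. A search for tyrosine motifs in the proteins was not made. Values of some genes of the lists and neighbourhoods are not reported here.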

Additional observations from a re-analysis of the deposited data

How the results depend on the processing

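*Milr1* and *Gata2* kept their direction and passed the threshold under every one of 15 alternatives, and *Ms4a2* kept its direction and did not pass in any. *Milr1* was chosen by its adjusted p in these same libraries, so its passing here follows largely from that choice. *Cpa3* kept its call in 6 of 15 and *Epx* in 8 of 14. The sign turned for *Fcer1a* without Vehicle replicate 2 (0.06) and without AG636 replicate 2 (0.34), and for *Mcpt8* without Vehicle replicate 1 (-0.01) and without AG636 replicate 1 (-0.07). With 1 library left out, *Fcer1a* ranged from -0.88 to 0.34 and *Mcpt8* from -0.07 to 0.67. Over 52 named genes and all alternatives, 606 of 773 values kept direction and call, 159 fell below the threshold, 4 rose above it and 4 turned.

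Of the 10 genes, 4 were called higher and 1 lower. At an adjusted p under 0.01 these were 2 and 0. Those called lower were 2 without a filter on low counts and with limma-voom, and 0 with DESeq2 and with at least 10 counts in every sample, where *Epx* was not tested. With 1 library left out they were 3 to 4 higher and 0 to 2 lower. For the 5 lists, 18 higher and 2 lower became 28 higher without a filter and 4 and 0 at 0.01, and 6 to 21 and 0 to 2 with 1 library left out. Over all genes, 1146 higher and 1222 lower became 231 and 325 at 0.01, and 399 to 1074 and 452 to 1298 with 1 library left out. A stricter threshold leaves fewer calls by construction, and the causes of the other changes were not tested. Scaling by library size alone moved the share of calls that were higher from 48.4% to 61.9% and the median log2 fold change of all genes from 0.03 to 0.12, with 4 and 1 of the 10 genes called.

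Vehicle and AG636 libraries share replicate numbers. The correlations of same-numbered deviations from the group means were -0.057, -0.178 and 0.224, and not every library correlated best with its own number. Deviations within a group of 3 depend on each other, so these values cannot decide whether same-numbered libraries shared more than a number. With a replicate block 3 of the 10 genes were higher and 1 lower, *Cpa3* no longer passing at 0.90, the lists gave 16 higher and 1 lower, and all genes 914 and 1046. Depth limits *Fcer1a*, with 63 counts in all libraries together, and *Epx* in AG636 replicate 2.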
